A study of Homo sapiens with 6 samples.

Results

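The comparison described here adds an ELK3 expression plasmid to a miR-200a mimic in MDA-MB 231 cells, an established triple-negative breast cancer line. It used 4 of the 6 libraries in the series, 2 labelled miR-200a and 2 labelled miR-200a plus ELK3, taken by their labels alone, and the 2 libraries of cells given a control mimic (NC) served as the background level of each gene. Cells of both groups had received 100 nM of miR-200a mimic with Lipofectamine, the second group also 30 ng of a plasmid carrying ELK3, and RNA was collected at 48 h for 3′ end sequencing (QuantSeq). The labels name the plasmid both as pcDNA3.1 Hygro(+)-ELK3 and as pcDNA3.1-Flag-ELK3, and no empty plasmid is stated for the miR-200a group, so that the presence of plasmid DNA and the presence of ELK3 cannot be told apart. Nothing in the labels says that the 2 libraries of a group came from separate cultures, and p-values therefore measure only the spread between these libraries, which may be technical.

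ELK3 (also called Net) is a member of the ternary complex factor group of ETS transcription factors. These proteins bind DNA beside the serum response factor SRF at CArG boxes of immediate-early genes such as FOS and EGR1, and ELK3 represses such genes until phosphorylation by ERK turns it into an activator. miR-200a belongs to the miR-200 family, which is known in epithelial cells for silencing ZEB1 and ZEB2 and thereby keeping E-cadherin expressed.

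The mature sequence of the transfected microRNA is shown first because its seed, in capitals, determines which transcripts it pairs with (RefSeq hairpin, GRCh38.p14, chr1:1167916-1167937, plus strand).
hsa-miR-200a-3p: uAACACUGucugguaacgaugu

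Promoter windows are shown for the 4 genes of smallest p among those that changed and that hold a CArG box, because this element is where ELK3 and SRF meet. A window of 250 bases before to 50 bases after the RefSeq start site (GRCh38.p14) was searched on both strands, capitals mark the CArG box, and each stretch is written on the strand of its gene. EGR1 has overlapping stretches at chr5:138465364-138465393 and chr5:138465386-138465415 (plus strand), with first bases of the boxes at -105 and -83 from the start. RPS6KA2 lies at chr6:166862607-166862636 (minus strand), KLHL42 at chr12:27780091-27780120 (plus strand) and RASSF5 at chr1:206507487-206507516 (plus strand).
EGR1 box at -105: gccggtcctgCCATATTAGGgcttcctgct
EGR1 box at -83: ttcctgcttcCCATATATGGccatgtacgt
RPS6KA2: tcgtttagagCCAATTAAGGtaaaatagtg
KLHL42: ctccgccggcCCTTTTTTGGcgctgaggga
RASSF5: ggctgcggttCCTTTAAAGGcgcgctggtg

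The 4 libraries held between 4229116 and 4868004 counts, and the NC libraries 4539903 and 3055915, so that 3 counts, taken as the limit of detection, corresponded to 0.613 to 0.709 CPM (counts scaled to a common library total) in the 4 libraries. All 7 markers of the mesenchymal (claudin-low) state of this line were present in every one of the 4 libraries, with a summed level of 4910 to 5100 CPM under miR-200a and 3370 to 4300 CPM with the plasmid label. VIM held the most counts of the 7, with 10352 and 11179 under miR-200a and 7830 and 4068 in the plasmid libraries. AXL did not fall in both, with 3723 and 3730 counts and then 3194 and 4410. Of the luminal markers, 5 of 7 were at or under 3 counts, with ESR1 and AGR2 at 0. Of the fibroblast and endothelial markers 4 of 6 were at or under 3 counts, with COL3A1, DCN, LUM and VWF at 0, and of the leukocyte markers 3 of 6 were.

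ELK3 itself was read first, as the gene the plasmid carries. Its level was 103 and 103 CPM in the miR-200a libraries, 94.1 and 79.6 CPM in those whose label adds ELK3, and 137 and 165 CPM under NC. Both libraries of the plasmid group lay below both miR-200a libraries, and the difference (log2 fold change -0.25, SE 0.16) did not pass the threshold in edgeR's quasi-likelihood test (Benjamini-Hochberg adjusted p = 0.372). The libraries read the 3′ ends of transcripts, and transcripts of a coding-sequence plasmid end in vector sequence, so this count does not check delivery of the plasmid, and the libraries are named by their labels throughout.

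The libraries labelled plus ELK3 differed from the miR-200a libraries in 536 genes, of which 155 belonged to one of the gene lists described here and 381 to none. Genes that rose included 23 of 73 factors of ribosome biogenesis, 7 of 44 of DNA replication and 8 of 40 chaperones, with the nucleolar factor BOP1 2.92-fold and the replication factor MCM10 2.73-fold higher. Genes that fell included 9 of 28 immediate-early genes, 13 of 33 inflammatory genes, 8 of 21 FOXO-type genes and 8 of 33 of glycolysis and hypoxia, with the stress cytokine GDF15 7.81-fold, interleukin 6 (IL6) 6.15-fold and the thioredoxin inhibitor TXNIP 3.89-fold lower. Of 12385 genes tested, 536 passed an adjusted p of 0.05 in edgeR's quasi-likelihood test, 234 higher and 302 lower, which is 4.33% of the genes in either direction, 1.89% higher and 2.44% lower. The smallest fold change among them was 1.51, 106 of the higher and 220 of the lower genes exceeded 2-fold, and 14 and 95 exceeded 3-fold. For comparison, 58.3% of all tested genes had groups that did not overlap, and the median change over all tested genes was 0.00 on the log2 scale. Of the 536 genes, 0 had overlapping groups. Separation of the groups in a gene past the threshold therefore goes with its choice and is no further result. With upper-quartile scaling the split was 169 higher and 348 lower. The number depended on single libraries: it was 141 without miR-200a replicate 1, 134 without miR-200a replicate 2, 5209 without plus ELK3 replicate 1 and 3529 without plus ELK3 replicate 2, where a lone library of a group is taken to vary like the pair of the other group.

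**Figure D1:**
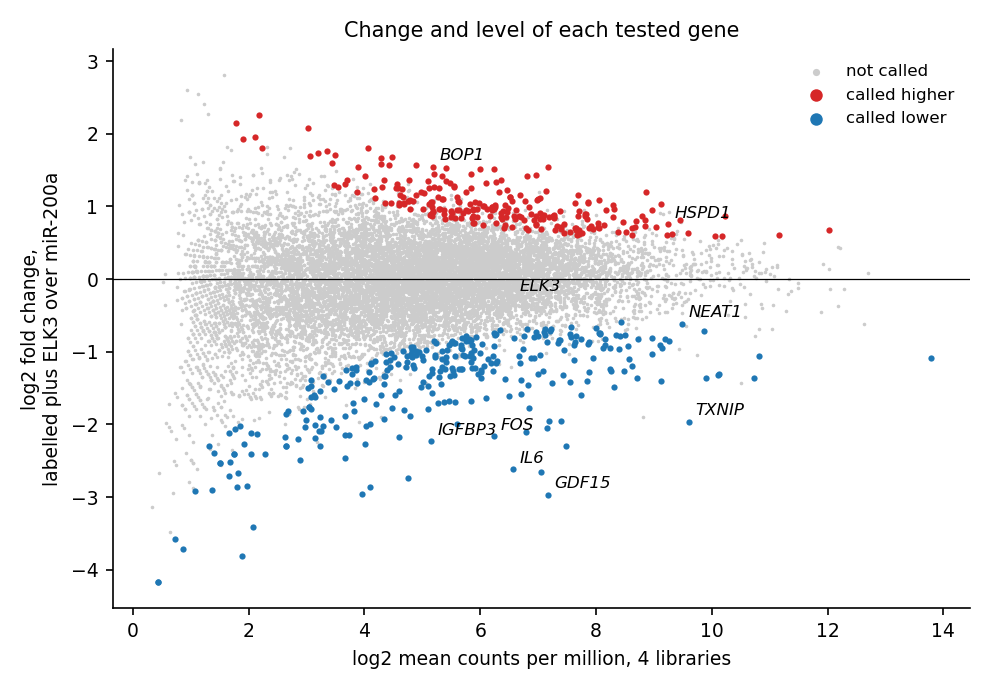
Each point is 1 of the 12385 genes tested, with its mean level (log2 CPM) on the horizontal axis and its log2 fold change, libraries labelled plus ELK3 over miR-200a, on the vertical axis; coloured points are the 234 higher and 302 lower genes at an adjusted p of 0.05. The lower genes reach further from 0 than the higher ones, with GDF15 at -2.97 and BOP1 at 1.55, and ELK3 sits near the middle at -0.25.

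Among well-expressed genes (mean log2 CPM above 5), the largest rises were led by nucleolar and replication factors. BOP1, a factor needed to make the large ribosomal subunit, was at 16.5 and 20.6 CPM under miR-200a and at 44.8 and 64.0 CPM in the libraries labelled plus ELK3 (log2 fold change 1.55, SE 0.25, adjusted p = 0.0204). MRTO4, which helps assemble the stalk of that subunit, went from 42.8 and 35.4 CPM to 99.7 and 125 CPM (1.52, SE 0.19, adjusted p = 0.0142). Both genes were higher in each plasmid library than in any of the other 4 libraries. MCM10, which loads DNA polymerase at replication origins, was at 27.6 and 33.5 CPM and then at 78.6 and 88.6 CPM (1.45, SE 0.19, adjusted p = 0.0149). CDC25A, the phosphatase that opens the G1 to S transition, was at 20.9 and 23.3 CPM and then at 56.8 and 61.2 CPM (1.42, SE 0.19, adjusted p = 0.0166). In these genes the groups were separated, as in every gene past the threshold, and the second plasmid library was the higher of its pair. The other members of the 12 largest rises were GPATCH4, GRWD1, RSPO1 (a secreted enhancer of Wnt signalling), WDR77 (the partner of the arginine methyltransferase PRMT5), IRAK1 (a kinase of interleukin 1 signalling), CD3EAP (a subunit of RNA polymerase I), CCDC137 and BRCC3 (a deubiquitinase), with log2 fold changes between 1.35 and 1.54. CD3EAP, MRTO4, WDR77, GRWD1 and CCDC137 overlap other genes in the annotation, and since the strand setting of the counting was not given, reads of the overlapping genes cannot be told apart. The same limit holds for other genes named below, among them CIRH1A, EBNA1BP2, FEN1, SOD2, CLDN7, CCND1, HSPD1, HSPE1, TIMM8B and NPC1.

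The largest falls were deeper and included several secreted factors. GDF15 was at 257 and 252 CPM under miR-200a and at 32.7 and 32.4 CPM in the libraries labelled plus ELK3 (-2.97, SE 0.16, adjusted p = 0.000456). CYP1B1, a cytochrome P450 induced through the aryl hydrocarbon receptor, was at 226 and 231 CPM and then at 34.1 and 38.5 CPM (-2.65, SE 0.16, adjusted p = 0.000724). For both genes the pair of plasmid libraries was nearly identical, and the NC libraries (323 and 274 CPM for GDF15, 245 and 201 CPM for CYP1B1) were close to the miR-200a level. IL6 was at 147 and 180 CPM and then at 42.4 and 10.6 CPM (-2.62, SE 0.47, adjusted p = 0.0292), a call that was lost in DESeq2 and with no filter on low counts. PIM1, a survival kinase, was at 295 and 297 CPM and then at 90.9 and 29.1 CPM (-2.30, SE 0.41, adjusted p = 0.0288). The PIM1 call was also lost with no filter on low counts. In these genes the plasmid libraries differed severalfold from each other, both lying below both miR-200a libraries. IGFBP3 (a carrier of insulin-like growth factors), FOS, FBXO32 (a ubiquitin ligase subunit), IL24 (a cytokine), BHLHE40 (a clock and stress repressor), TXNIP, MT1X (a metal-binding protein) and FCMR completed the 12 largest falls, at -1.95 to -2.22. FCMR and IL24 are neighbours whose gene models lie 246 bases apart in GENCODE release 29 on GRCh38, and their counts differed by at most 9.84% in any of the 6 libraries, so their reads cannot be told apart and they may be 1 signal. In 12 of the 12 largest rises and 12 of the 12 largest falls both NC libraries lay on the miR-200a side of both libraries labelled plus ELK3.

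**Figure D2:**
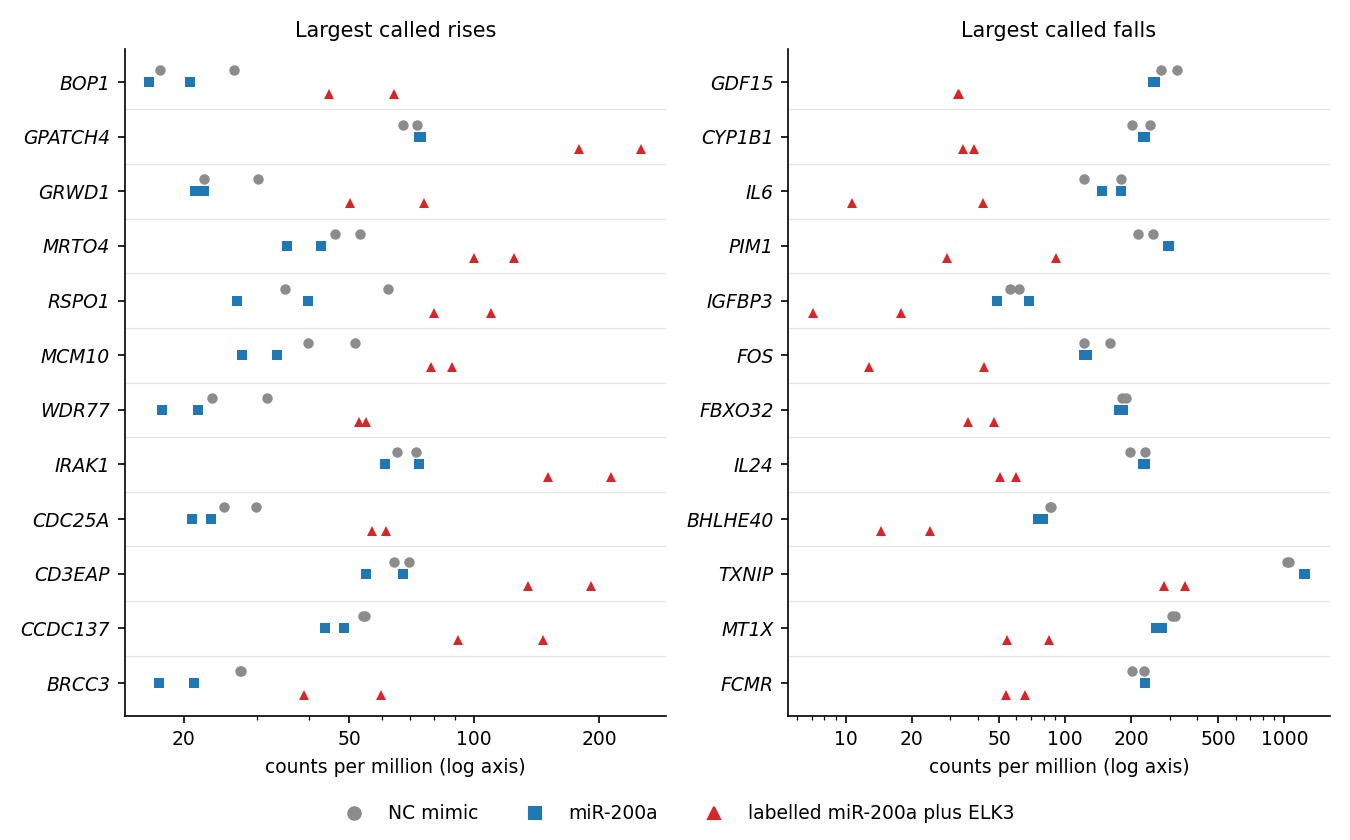
Level of the 12 genes that rose most and the 12 that fell most, in each of the 6 libraries (CPM, log axis; points are single libraries and colours mark NC, miR-200a and miR-200a plus ELK3). The genes were chosen to have no overlap between miR-200a and plus ELK3. Both libraries labelled plus ELK3 also lie outside the NC libraries in every one of the 24 genes. The pair lies close together for GDF15 (32.7 and 32.4 CPM) and apart for IL6 (42.4 and 10.6 CPM).

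The genes of ribosome assembly held more rises than any other of these gene lists. Of the 73 tested factors of ribosome biogenesis, 23 rose and 0 fell, against 1.89% of all genes, their median log2 change was 0.71 against 0.00 over all genes, and 64 had groups that did not overlap in this direction, against 29.1% of all genes. The 23 were MRTO4, CIRH1A, DKC1, EBNA1BP2, NOP56, BOP1, NOLC1, RRS1, NOP16, TSR1, NCL, UBTF, FTSJ3, NHP2, DDX18, WDR43, LTV1, GNL3L, DDX21, GTPBP4, NOP58, SURF6 and IMP4, which span rRNA transcription (UBTF), the box C/D and H/ACA small nucleolar RNPs that modify rRNA (NOP56, NOP58, DKC1, NHP2) and the assembly of both subunits. DKC1, the pseudouridine synthase, was at 173 and 164 CPM under miR-200a and at 319 and 400 CPM in the libraries labelled plus ELK3 (1.09, SE 0.16, adjusted p = 0.019). CIRH1A, a factor of the small subunit, was at 62.7 and 65.4 CPM and then at 132 and 153 CPM (1.16, SE 0.16, adjusted p = 0.0186). EBNA1BP2, a factor of the large subunit, was at 136 and 150 CPM and then at 284 and 267 CPM (0.94, SE 0.14, adjusted p = 0.0195). In each of these genes the lower plasmid library was more than 1.5 times the higher miR-200a library. The 2 plasmid libraries gave medians of 0.63 and 0.75 for the group when each was set against the miR-200a mean. The number of members that rose was 2 without miR-200a replicate 1, 6 without miR-200a replicate 2, 55 without plasmid library 1 (with 4 lower) and 55 without plasmid library 2.

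The ribosomal proteins themselves moved far less. Of 84 tested, 2 rose and 0 fell, with a median of 0.11, and the 2 were the paralogs RPL7L1 (83.8 and 84.8 CPM, then 145 and 246 CPM, adjusted p = 0.0345) and RPL22L1 (172 and 168 CPM, then 252 and 277 CPM, adjusted p = 0.0471). Of 76 mitochondrial ribosomal proteins 1 rose, MRPL14, with a median of 0.37 for the group, and 6 rose in DESeq2. Of 34 translation factors 3 rose and 0 fell (median 0.34). They were EIF5B, which joins the subunits, EIF3A, the scaffold of initiation factor eIF3, and EIF2S2, a subunit of eIF2, and none of the 3 passed with upper-quartile scaling. Of 20 cytosolic tRNA synthetases 1 rose, TARS, with a median of 0.42, and TARS did not pass with upper-quartile scaling, with no filter on low counts, with at least 10 counts in each library or with repeated symbols left out. Of the ribosomal proteins 2.38% rose and of the mitochondrial ones 1.32%, near the 1.89% of all genes. Of the translation factors 8.82% rose and of the synthetases 5%. In the order named, 31, 55, 21 and 16 members were higher without overlap, against 29.1% of all genes. None of the genes named here passed without miR-200a replicate 1 or without miR-200a replicate 2, and the ribosomal protein paralogs did not pass in limma either.

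Some genes of DNA replication rose as well. Of 44 tested, 7 rose and 0 fell (15.9%, against 1.89% of all genes that rose), with a median of 0.57. The 7 were MCM10, FEN1, MCM3, CDC6, CCNE1, RRM2 and MCM4, which license origins, process Okazaki fragments, supply deoxynucleotides and drive S-phase entry. FEN1, the flap endonuclease, was at 125 and 134 CPM under miR-200a and at 288 and 248 CPM in the libraries labelled plus ELK3 (1.05, SE 0.15, adjusted p = 0.0189). MCM3, a subunit of the replicative helicase, was at 111 and 116 CPM and then at 204 and 231 CPM (0.94, SE 0.15, adjusted p = 0.0208). CDC6, a licensing factor, was at 33.6 and 29 CPM and then at 64.7 and 68.0 CPM (1.08, SE 0.18, adjusted p = 0.0238). The groups were separated in all 3, as in every gene past the threshold. Genes of mitosis moved less, 1 of 37 rising (FOXM1, a transcription factor of G2 and M phase) with a median of 0.24. This share, 2.7%, was near the 1.89% of all genes that rose. Fewer or more cells in a phase of the cycle and less or more RNA per cell cannot be told apart in these bulk samples. Without miR-200a replicate 1 or 2 the number of replication genes that rose was 0 and 1 and FOXM1 did not pass, and without plasmid library 1 or 2 it was 22 and 27.

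Further rises lay in protein folding, mitochondrial import and nucleotide supply. Of 40 tested chaperones 8 rose and 0 fell (median 0.31), which is 20% against 1.89% of all genes that rose. The 8 were HSPH1, CHORDC1, CCT6A, HSP90AA1, HSPD1, HSPA8, STIP1 and HSPE1, which are cytosolic HSP70 and HSP90 components, a chaperonin subunit and the mitochondrial chaperonin pair. HSP90AA1, the inducible HSP90, was at 3205 and 3207 CPM under miR-200a and at 4688 and 5536 CPM in the libraries labelled plus ELK3 (0.67, SE 0.14, adjusted p = 0.0373). HSPH1, an exchange factor of HSP70, was at 157 and 147 CPM and then at 289 and 338 CPM (1.04, SE 0.15, adjusted p = 0.0189). The miR-200a libraries differed by little in these genes and the plasmid libraries stood above them, as in every gene that rose. Of 33 genes of mitochondrial import and translation 4 rose (TIMM8B, HSPD1, GRPEL1 and HSPE1; median 0.46), HSPD1 and HSPE1 being counted in both groups. Of 22 genes of nucleotide synthesis 4 rose (NME1, CTPS1, RRM2 and UMPS; median 0.38), CTPS1, the CTP synthase, from 12.1 and 15.3 CPM to 34.8 and 30.7 CPM (adjusted p = 0.0327). Of 76 subunits of the respiratory chain and ATP synthase 2 rose (ATP5G1 and NDUFS6; median 0.16), and of 37 proteasome subunits 1 did (PSMB7; median 0.33). The shares of the last 2 lists, 2.63% and 2.7%, were near the 1.89% of all genes that rose. Without miR-200a replicate 1, and again without replicate 2, none of the genes of these 5 lists passed, and with no filter on low counts none of the nucleotide genes did.

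Targets of MYC and of the polyamine pathway moved in both directions. Of 20 tested, SRM, NME1, NCL and TFRC rose and SAT1 and MXI1 fell, with a median of 0.05. In either direction this was 30% of the list, against 4.33% of all genes. SRM, the spermidine synthase, was at 81.9 and 83.4 CPM under miR-200a and at 161 and 199 CPM in the libraries labelled plus ELK3 (1.12, SE 0.17, adjusted p = 0.019). SAT1, which acetylates polyamines for their breakdown and export, was at 336 and 340 CPM and then at 148 and 170 CPM (-1.09, SE 0.15, adjusted p = 0.0163). MXI1, which competes with MYC for its partner MAX, was at 93.0 and 99.5 CPM and then at 42.7 and 46.8 CPM (-1.11, SE 0.17, adjusted p = 0.019). The groups were apart in all 3 genes, but 0 genes of the list passed without miR-200a replicate 1 and again without replicate 2, and 7 rose and 8 fell without plasmid library 1 and 13 rose and 3 fell without plasmid library 2.

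The immediate-early genes are the class that ternary complex factors are known to bind. Of 28 tested, 9 fell and 0 rose, against 2.44% of all genes that fell, with a median of -0.98, and 25 had groups that did not overlap in this direction against 29.2% of all genes. The 9 were EGR1, NR4A1, ATF3, FOSB, JUNB, NR4A2, KLF6, FOSL2 and FOS, all transcription factors. EGR1 was at 495 and 522 CPM under miR-200a and at 210 and 212 CPM in the libraries labelled plus ELK3 (-1.27, SE 0.14, adjusted p = 0.00763), with 844 and 849 CPM under NC. FOSB, a partner of JUN in AP-1, was at 53.5 and 64.0 CPM and then at 15.8 and 20.3 CPM (-1.70, SE 0.22, adjusted p = 0.0146), with 85.5 and 82.8 CPM under NC. FOS was at 122 and 126 CPM and then at 42.7 and 12.8 CPM (-2.16, SE 0.42, adjusted p = 0.0345), with 122 and 160 CPM under NC. EGR1 and FOSB were thus highest under NC, lower under miR-200a and lowest with the plasmid label, whereas the FOS levels of NC and miR-200a met at 122 CPM. ATF3, a stress-induced factor, was at 92.4 and 93.0 CPM and then at 35.0 and 36.9 CPM (-1.37, SE 0.17, adjusted p = 0.0128), and NR4A1, an orphan nuclear receptor, at 28.2 and 25.1 CPM and then at 5.80 and 5.20 CPM (-2.27, SE 0.27, adjusted p = 0.012). The plasmid libraries were close together in these 2 genes and apart in FOS, whose call was lost in DESeq2 and with no filter on low counts. The number of immediate-early genes that fell was 9, 10, 22 and 21 when miR-200a replicate 1 or 2 or plasmid library 1 or 2 was left out.

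The partners of ELK3 at these genes did not pass the test. Of 6 tested ternary complex factors and SRF cofactors and of 13 other ETS factors, 0 passed in either direction in edgeR's quasi-likelihood test, where 1 and 4 had an unadjusted p under 0.05, DESeq2 called 1 and 1 (SRF and ETV1), and limma called 0. SRF was nearest, at 173 and 148 CPM under miR-200a and 240 and 271 CPM in the libraries labelled plus ELK3 (0.67, SE 0.15, adjusted p = 0.0503), with groups that did not overlap. SRF passed in 7 of 16 alternatives, namely DESeq2, DESeq2 size factors in edgeR, all 6 libraries in one model, the replicate block, the unadjusted criteria of the study's methods and without either plasmid library, and not in the other 9, those without a miR-200a library among them. ELK1, the closest relative with ELK4, gave -0.29 (SE 0.21, adjusted p = 0.406) and ELK4 -0.01 (SE 0.21, adjusted p = 0.974). In ELK1 the higher plasmid library (61.0 CPM) lay just under the lower miR-200a library (61.2 CPM), and in ELK4 the groups overlapped.

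Feedback inhibitors and other outputs of ERK signalling were mixed. Of 20 tested, DUSP5, DUSP1, SPRY2 and DUSP4 fell and CCND1 rose, with a median of -0.41. In either direction this was 25% of the list, against 4.33% of all genes. DUSP5, the nuclear phosphatase of ERK, was at 451 and 418 CPM under miR-200a and at 208 and 156 CPM in the libraries labelled plus ELK3 (-1.26, SE 0.17, adjusted p = 0.017). CCND1 (cyclin D1), which drives G1 progression, was at 340 and 341 CPM and then at 619 and 697 CPM (0.95, SE 0.14, adjusted p = 0.0189), with 246 and 254 CPM under NC. CCND1 thus moved against the phosphatases, and the plasmid libraries were the highest of the 6. Without either miR-200a library CCND1 no longer passed and 2 of the list fell.

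Inflammatory genes held more falls by number than any other of the 50 gene lists with a tested member. By share, mesenchymal genes (41.7%) and nuclear noncoding RNAs (40.0%) were above the inflammatory list (39.4%), against 2.44% of all genes. Of 33 tested NF-kB targets and cytokines, 13 fell and 0 rose, with a median of -0.73, and the 13 were IL1A, SOD2, LCN2, IL6, SAA2, CSF1, SAA1, PTGS2, IL1B, CXCL2, NFKBIZ, CXCL1 and BIRC3. IL1A, the alarm cytokine interleukin 1 alpha, was at 142 and 129 CPM under miR-200a and at 50.3 and 38.7 CPM in the libraries labelled plus ELK3 (-1.60, SE 0.19, adjusted p = 0.0109). SOD2, the mitochondrial superoxide dismutase, was at 254 and 291 CPM and then at 123 and 81.5 CPM (-1.42, SE 0.21, adjusted p = 0.019). LCN2, an iron-binding secreted protein, was at 49.3 and 51.5 CPM and then at 24.6 and 24.1 CPM (-1.05, SE 0.19, adjusted p = 0.0285), with 6.20 and 3.89 CPM under NC. IL1A and SOD2 were thus below the NC level with the plasmid label, whereas LCN2 stayed between NC and miR-200a. SAA1 and SAA2 are near-identical copies, and reads may be split between them. Of 29 interferon-stimulated genes, IFIT1 and IFI27 fell (median -0.17), and 0 did without either miR-200a library or in limma. The number of inflammatory genes that fell was 7 and 6 without a miR-200a library and 20 and 20 without a plasmid library.

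Genes of the FOXO type are normally kept down by growth factor signalling. Of 21 tested 8 fell and 0 rose, against 2.44% of all genes that fell, with a median of -1.01. In 19 of them the groups did not overlap in this direction, against 29.2% of all genes. The 8 were TXNIP, C10orf10, IRS2, YPEL3, HBP1, KLF9, BCL6 and PDK4. TXNIP was at 1229 and 1242 CPM under miR-200a and at 352 and 282 CPM in the libraries labelled plus ELK3 (-1.96, SE 0.16, adjusted p = 0.0029), with 1027 and 1049 CPM under NC. C10orf10 (also DEPP), an inducer of autophagy, was at 52.2 and 41.9 CPM and then at 7.19 and 6.85 CPM (-2.74, SE 0.25, adjusted p = 0.0041). IRS2, an adaptor of the insulin receptor, was at 423 and 424 CPM and then at 195 and 163 CPM (-1.24, SE 0.15, adjusted p = 0.0121). Both plasmid libraries were far below all 4 others in these genes. Without miR-200a replicate 1 or 2 the number that fell was 7 and 6, and without plasmid library 1 or 2 it was 17 and 14.

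Further falls lay in lists of hypoxia, glucose uptake and stress genes. Of 33 tested genes of glycolysis and the hypoxia response 8 fell and 0 rose (median -0.32), namely SLC2A3, NDRG1, HILPDA, HIF1A, ANKRD37, ADM, BNIP3L and P4HA1. This was 24.2%, against 2.44% of all genes that fell. SLC2A3, a high-affinity glucose transporter, was at 185 and 172 CPM under miR-200a and at 49.9 and 54.8 CPM in the libraries labelled plus ELK3 (-1.77, SE 0.16, adjusted p = 0.0041). NDRG1, a stress-induced growth suppressor, was at 2478 and 2419 CPM and then at 911 and 987 CPM (-1.37, SE 0.13, adjusted p = 0.00544). The libraries of a pair were close together in both genes, and the number of genes of this list that fell was 2 without either miR-200a library, 20 without plasmid library 1 and 19 without plasmid library 2. Of 7 genes of the aryl hydrocarbon receptor response all 7 were lower without overlap, against 29.2% of all genes (median -1.06). CYP1B1 and the feedback repressor TIPARP were past the threshold. Of 23 genes of the p53 type GDF15, BBC3 (the death inducer PUMA) and GADD45B fell and AEN, a nuclease, rose, with a median of -0.13. BBC3 was at 148 and 155 CPM and then at 52.2 and 63.1 CPM (-1.39, SE 0.17, adjusted p = 0.012). Targets of ATF4 were mixed, 2 of 20 rising and 2 falling with a median of 0.40. CHAC1, which degrades glutathione, was at 2.93 and 3.27 CPM and then at 13.7 and 12.8 CPM (2.08, SE 0.33, adjusted p = 0.0208), whereas DDIT4, an inhibitor of mTORC1, was at 415 and 418 CPM and then at 283 and 268 CPM (-0.59, SE 0.13, adjusted p = 0.0486). Of 47 lysosomal genes 5 fell (NPC1, NPC2, CTSF, IDUA and CTSB) and 1 rose (ATP6V0D1), with a median of -0.36, and NPC1, the cholesterol exporter, was at 178 and 187 CPM and then at 83.2 and 63.8 CPM (adjusted p = 0.0165). In either direction 17.4% of the p53-type, 20% of the ATF4 and 12.8% of the lysosomal genes passed, against 4.33% of all genes. Without miR-200a replicate 1 or 2 the lysosomal genes that fell were 2 and 2, and DDIT4 did not pass.

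Members of both the epithelial and the mesenchymal list fell. Of 26 tested epithelial genes 6 fell and 0 rose (median -0.91), and of 12 tested mesenchymal genes 5 fell and 0 rose (median -0.68). These were 23.1% and 41.7%, against 2.44% of all genes that fell. SPINT2, a protease inhibitor of epithelia, was at 66.7 and 67.9 CPM under miR-200a and at 26.2 and 15.8 CPM in the libraries labelled plus ELK3 (-1.68, SE 0.25, adjusted p = 0.019), with 12.6 and 16.6 CPM under NC. MPZL2, an adhesion protein of epithelia, was at 142 and 141 CPM and then at 77.9 and 67.6 CPM (-0.96, SE 0.16, adjusted p = 0.0225), with 32.3 and 30.5 CPM under NC. F11R, a tight junction protein, was at 75.2 and 63.8 CPM and then at 29.2 and 29.5 CPM (-1.24, SE 0.19, adjusted p = 0.019), with 44.1 and 39.9 CPM under NC. SPINT2 was therefore near its NC level with the plasmid label, MPZL2 between the levels of NC and miR-200a, and F11R below NC. The remaining epithelial genes that fell were CLDN7, LCN2 and JUP. Among mesenchymal genes, FN1 (fibronectin) was at 323 and 323 CPM and then at 117 and 96.9 CPM (-1.60, SE 0.16, adjusted p = 0.00544), with 489 and 475 CPM under NC. LOX, which crosslinks collagen, was at 86.1 and 88.1 CPM and then at 34.3 and 20.1 CPM (-1.68, SE 0.25, adjusted p = 0.019). SNAI2, a repressor of E-cadherin, was at 57.5 and 57.2 CPM and then at 27.6 and 26.7 CPM (-1.08, SE 0.18, adjusted p = 0.0238). These 3 genes and SNAI1, which also fell, were lower in both plasmid libraries than in the other 4. The summed level of the 6 epithelial junction markers was 348 to 354 CPM under miR-200a and 225 to 272 CPM in the plasmid libraries, and the part of a shift in cell state in these values was not tested. Without miR-200a replicate 1 or 2, 2 and 2 epithelial and 2 and 3 mesenchymal genes fell, and without plasmid library 1 or 2, 15 and 12 epithelial and 9 and 9 mesenchymal genes.

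Falls were fewer by share in matrix and adhesion lists than in the epithelial (23.1%) and mesenchymal (41.7%) lists. Of 23 matrix proteases and their inhibitors 4 fell, among them ADAM8, PLAT and CTSB (median -0.67), of 24 TGF-beta genes 4 fell, among them TGFBI, TGFBR3 and LTBP1 (median -0.41), of 26 integrins and laminins 2 fell (LAMA3 and ITGB4, median -0.46), and of 20 YAP targets 3 fell (CTGF, ANKRD1 and AMOTL2, median -0.28). In this order the shares were 17.4%, 16.7%, 7.69% and 15%, against 2.44% of all genes that fell. In the same order 17, 13, 23 and 11 members were lower without overlap, against 29.2% of all genes. ADAM8, a cell-surface metalloprotease, was at 494 and 442 CPM under miR-200a and at 159 and 175 CPM in the libraries labelled plus ELK3 (-1.49, SE 0.15, adjusted p = 0.00544). ITGB4, the hemidesmosome integrin, was at 70.0 and 83.8 CPM and then at 29 and 44.7 CPM (-1.06, SE 0.23, adjusted p = 0.0464), with 24.6 and 29.2 CPM under NC. ANKRD1, a nuclear cofactor responsive to tension, was at 1176 and 1153 CPM and then at 665 and 758 CPM (-0.71, SE 0.14, adjusted p = 0.0332). Groups were apart in all 3, as in every gene past the threshold. Some genes are counted in more than 1 of these lists. Of the protease list 1 gene fell without either miR-200a library and 13 and 15 without plasmid library 1 or 2. Without miR-200a replicate 1 or 2 the TGF-beta genes that fell were 0 and 0, the integrins and laminins 1 and 0 and the YAP targets 1 and 1, and in limma 2 TGF-beta genes fell.

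Of the 8 genes tested that the study names, ELK3 included, 0 passed in edgeR's quasi-likelihood test, DESeq2 or limma, 3 had an unadjusted p under 0.05 in the first, and their median was -0.55. CDH1 (E-cadherin) had 11 and 12 counts in the miR-200a libraries, 3 and 3 counts in those labelled plus ELK3 and 1 and 0 counts under NC, levels at which the plasmid group lay at the limit of detection (adjusted p = 0.113). LAMA5, a laminin chain, was at 100 and 111 CPM and then at 73.0 and 65.9 CPM (-0.60, SE 0.16, adjusted p = 0.0687), with 57.3 and 62.0 CPM under NC. TNS1 (tensin, a focal adhesion protein) was at 6.90 and 6.13 CPM and then at 1.39 and 2.84 CPM (-1.61, SE 0.45, adjusted p = 0.0732). In these 3 genes the groups did not overlap. LAMA5 and TNS1 each passed in 4 alternatives, both with all 6 libraries in one model, by the unadjusted criteria of the study's methods and without plasmid library 2, LAMA5 also without plasmid library 1 and TNS1 also with the replicate block. ZEB1, the classical target of the miR-200 family, was at 95.1 and 83.6 CPM and then at 89.3 and 115 CPM (0.19, SE 0.18, adjusted p = 0.542), and YAP1 at 101 and 92.4 CPM and then at 93.0 and 79.9 CPM (-0.16, SE 0.17, adjusted p = 0.568). Their groups overlapped.

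**Figure D3:**
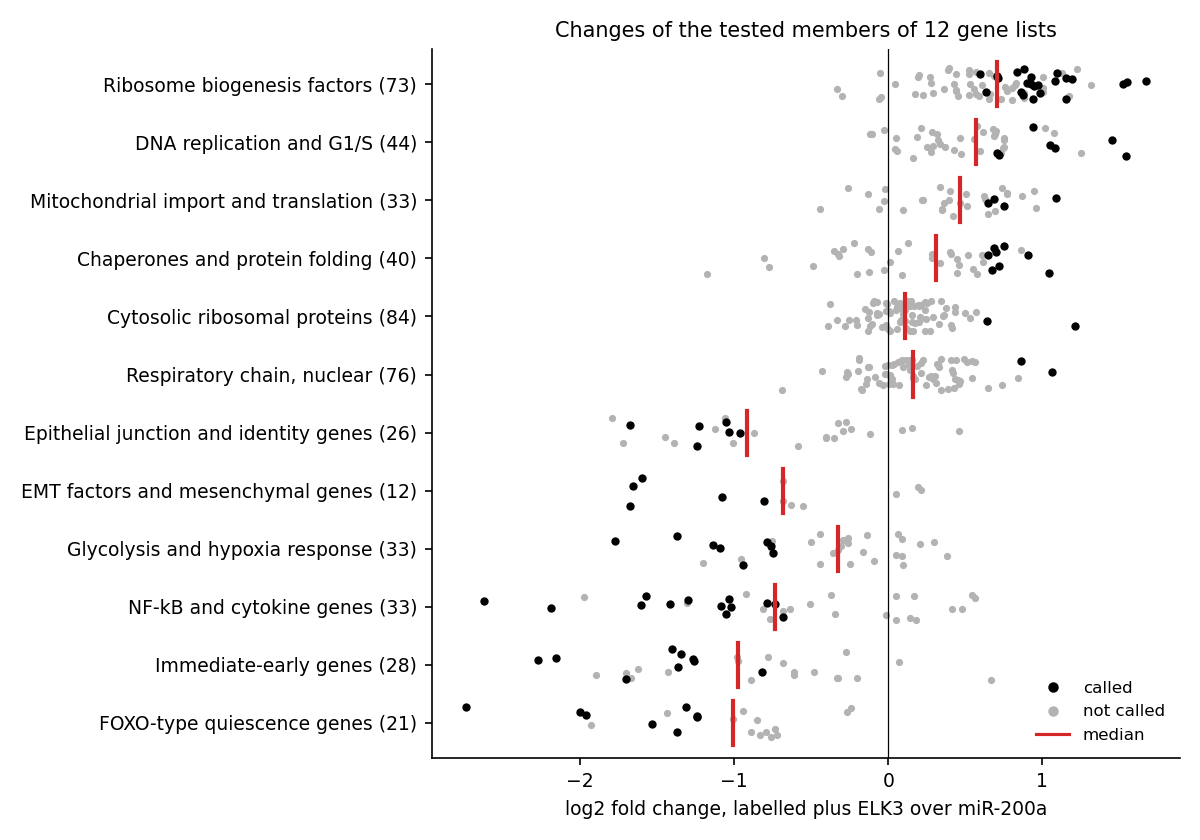
For 12 gene groups, the log2 fold change of every tested member (points) and the group's median (red bar), libraries labelled plus ELK3 over miR-200a, with members past an adjusted p of 0.05 in black. Ribosome biogenesis (median 0.71) and DNA replication (0.57) lie to the right of 0, and the FOXO type (-1.01), immediate-early (-0.98) and epithelial (-0.91) groups to the left.

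Promoter sequence was compared across the same groups as a description. RefSeq promoter windows (GRCh38.p14) were matched for 9890 of the 12385 genes, 9216 by symbol and 674 by an older symbol. A CArG box lay in 1.11% of the windows of tested genes and 1.29% of all windows, in 3 of the 196 windows of genes that rose (1.53%), in 5 of the 228 of genes that fell (2.19%), and in 2 of the 19 immediate-early windows (10.5%). Boxes further than 250 bases before or 50 bases after the start site were not searched, so these are not shares of genes with a box. In the windows printed above, EGR1 has TTCC beside its boxes, the reverse complement of the GGAA core that ETS proteins contact. In RASSF5, TTCC runs across the left edge of the box, and the windows of RPS6KA2 and KLHL42 do not hold the core. The letters CCGGAAG, an ETS site, were in 20.1% of tested and 10.7% of all windows. They were in 23.5% of the windows of genes that rose and 7.02% of those that fell. By list, they were in 27 of 61 ribosome biogenesis windows (44.3%), 27 of 71 of mitochondrial ribosomal proteins and 19 of 64 of the respiratory chain. In the last 2 lists only 1 and 2 genes rose. The same letters were in 6 of 38 replication, 1 of 19 immediate-early, 1 of 23 inflammatory and 0 of 21 FOXO-type windows. The E-box CACGTG, which MYC and other factors bind and which reads the same on both strands, was in 10.3% of tested and 7.43% of all windows, 21.4% of those that rose, 9.65% of those that fell and 22 of 61 ribosome biogenesis windows (36.1%). The E2F-type letters TTTGGCGC were in 8 of 38 replication windows (21.1%), against 1.19% of tested and 0.659% of all windows and another E2F-type sequence, TTTCCCGC, in 26.3% of them against 2.63% and 1.66%. CCGGAAG contains the GGAA core and TTTCCCGC its reverse complement. As examples of the E-box among the genes that rose, a stretch of CIRH1A (chr16:69132621-69132650, plus strand) and one of EBNA1BP2 (chr1:43172790-43172819, minus strand) are shown with the E-box in capitals, chosen after the values were seen.
CIRH1A: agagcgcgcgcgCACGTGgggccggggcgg
EBNA1BP2: gatattgttggcCACGTGggatcgaagacc

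The 2 libraries labelled plus ELK3 lay further apart than the pairs of the other groups. The root mean square of the log2 difference over all tested genes was 0.59 within the plasmid pair, 0.35 within the miR-200a pair and 0.43 within the NC pair, and 0.62 to 0.76 between a plasmid and a miR-200a library. Differences over 1.5-fold were found in 3163 genes within the plasmid pair (25.5%), in 1089 within the miR-200a pair (8.79%) and in 1431 within the NC pair (11.6%). Of the 3163 genes, 1722 were higher in plasmid library 1 and 1441 in plasmid library 2. Genes with at least 50 counts, where counting error is small, gave the same order, with 1356 of 8160 genes (16.6%) beyond 1.5-fold in the plasmid pair, 76 (0.931%) in the miR-200a pair and 235 (2.88%) in the NC pair. The common biological coefficient of variation was 0.219 for the plasmid pair against 0.0490 for miR-200a and 0.0712 for NC.

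The disagreement had named genes on both sides. EPHA2, a receptor tyrosine kinase, was at 149 and 144 CPM under miR-200a, at 155 CPM in plasmid library 1 and at 29.3 CPM in plasmid library 2. CD9, a tetraspanin, was at 266 and 231 CPM, then 203 and 40.2 CPM, PPP4C, a phosphatase subunit, at 49.1 and 52.1 CPM, then 45.0 and 9.92 CPM, and THOC3, an RNA export factor, at 38.7 and 41.5 CPM, then 41.7 and 9.92 CPM. In these 4 genes plasmid library 1 resembled the miR-200a libraries and plasmid library 2 stood alone, whereas IL6, also among the 5 largest of this kind, was below miR-200a in both. On the other side NBPF10, LOC653653, COL18A1 (a collagen), PDE2A (a phosphodiesterase) and H1FX (a linker histone) were lower in plasmid library 1, with H1FX at 321 and 317 CPM under miR-200a and then at 150 and 326 CPM. NBPF10 belongs to a family of near-identical copies, and its counts are uncertain.

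Where each plasmid library was set against a different miR-200a library, so that the 2 changes shared no library, the changes correlated across genes at 0.50 (same-numbered pairs) or 0.52 (crossed), and 67.7% or 68.7% of genes had the same sign. Genes are not independent replicates, and these values are given as a description. Beyond 1.5-fold in both pairs, 1666 genes moved the same way, 646 higher and 1020 lower, and 193 moved opposite ways. Over the 8160 genes with at least 50 counts the correlation was 0.58, with 717 genes the same way and 11 opposite. Among the 234 genes that rose the median change was 0.85 in plasmid library 1 and 1.07 in plasmid library 2, the latter larger in 183 genes, and among the 302 that fell it was -1.20 and -1.31, the latter deeper in 178 genes. These genes were chosen for a change in both libraries, so the like direction in them is fixed by the choice.

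**Figure D4:**
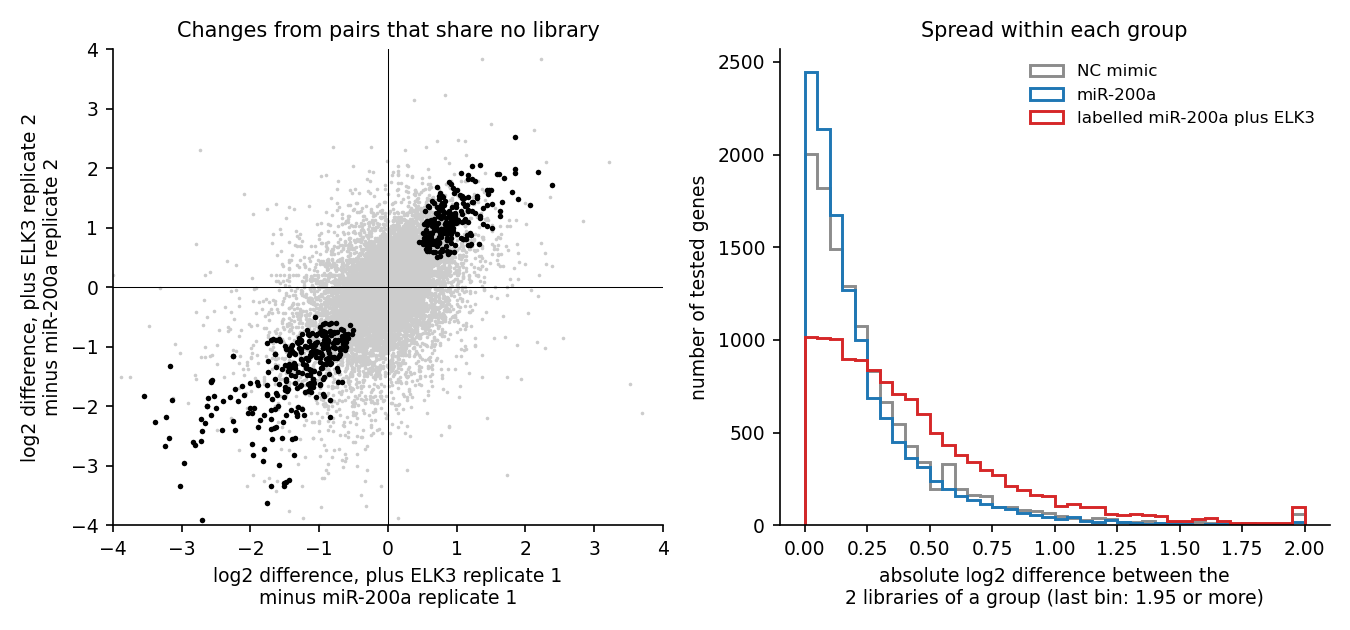
Left, the log2 change of each tested gene in plasmid library 1 over miR-200a replicate 1 (horizontal) against plasmid library 2 over miR-200a replicate 2 (vertical), with 12 of the 12385 genes outside the axes. Right, the distribution of the absolute log2 difference between the 2 libraries of each group; the plasmid pair has more genes at large differences, 3163 beyond 1.5-fold against 1089 for the miR-200a pair.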

How the data were processed

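RNA of MDA-MB 231 cells was sequenced from the 3′ end (QuantSeq) in 6 libraries, grouped here by their titles. Each library has its own file of raw counts by gene symbol, deposited by the authors, and the submitters' processing notes name Bowtie2, hg19 and edgeR; the counting program, annotation and strand setting are not given in the sources used here. Repeated symbols (286 of 24462) were summed. The 2 libraries labelled miR-200a plus ELK3 were compared with the 2 labelled miR-200a by edgeR's quasi-likelihood test (edgeR 4.0.16 in R 4.3.3; filterByExpr with a minimum count of 10, TMM scaling, 2 residual degrees of freedom) with Benjamini-Hochberg adjustment at 0.05. Levels are TMM-scaled CPM, and a fold change near 0 counts is not a bound. DESeq2 1.42.0, limma 3.58.1 and other filters, scalings and samples were alternatives. Total counts per library were 4229116 to 4868004 in the 4 libraries. Floors cover counting error only.

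The test was checked on simulated data for this comparison (12385 genes, 200 changed), where 47.4% of 2-fold and 91.8% of 4-fold changes were recovered and 6.85% of 146 calls were false. The simulation gave both groups the same spread for a gene. In the data the coefficient of variation was 0.219 for the plasmid pair and 0.0490 for the miR-200a pair, so these rates need not hold for them. An exact permutation test of 2 libraries against 2 cannot go below 0.333 (two-sided), and none was used. The comparison and the gene lists were chosen with earlier results of these data known. Named genes were ELK3 and those the study names, the 12 largest rises and falls with a mean log2 CPM above 5, up to 4 members of smallest p in each list (every member of small families), the 5 genes with the largest difference each way between the plasmid libraries, the 4 genes of smallest p with a CArG box, and members past the threshold in a list. A few items are not reported here. Sequences are from RefSeq tables (GRCh38.p14); no gene coordinates are given on hg19. The E-box and E2F-type letters were added to the promoter search after the values were seen.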

Additional observations from a re-analysis of the deposited data

How the results depend on the processing

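Of the 536 genes past the threshold none changed direction under any alternative. Their number was 188 (65 higher, 123 lower) with no filter on low counts, 1587 (795 and 792) with all 6 libraries in one model, 18 (0 and 18) at an adjusted p of 0.01, 2295 (1064 and 1231) by the criteria in the study's methods (no adjustment), and 362 (144 and 218) in limma. DESeq2 called 645 genes (336 higher, 309 lower), 471 of the 536 among them, and upper-quartile scaling 517 (169 and 348). Leaving out single libraries gave 134 to 5209 genes, 18 to 2699 higher and 109 to 2510 lower. Calls were fewer without a miR-200a library (141 and 134) and more without a plasmid library (5209 and 3529), where the lone library is assumed to vary like the miR-200a pair. With the replicate number as a block 1233 genes passed (532 and 701), but the numbers are not shown to pair the libraries, as deviations of same-numbered libraries correlated at -0.0377. Over genes with at least 50 counts the plasmid pair's root mean square difference was 0.44, 1356 genes differed over 1.5-fold, and the changes without a shared library correlated at 0.58 with 69.8% of the same sign. Without single libraries the log2 change of EPHA2 ran from -2.32 to 0.087 (highest without plus ELK3 replicate 2) and that of ELK4 from -0.26 to 0.20 (0.02 without miR-200a replicate 1, highest without plus ELK3 replicate 2). Other values of named genes kept their side of the threshold in 1840 cases, lost it in 351 and gained it in 20, and list counts stayed within 1.5 times in 399 cases and moved further in 369. The cause of these differences was not tested. In limma MALAT1 is 0 by construction, being the highest gene of every library. With 2 libraries a group, no change under 1.5-fold passed the threshold.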

Other observations

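Of 5 nuclear noncoding RNAs tested, MALAT1 and NEAT1 fell. MALAT1, the gene with the most counts in every library, was at 19197 and 19174 CPM under miR-200a, at 9659 and 8417 CPM in the plasmid libraries and at 14988 and 15128 CPM under NC (log2 fold change -1.09, SE 0.13, adjusted p = 0.012 in edgeR's quasi-likelihood test). NEAT1, the scaffold of paraspeckles, was at 859 and 872 CPM and then at 604 and 528 CPM (-0.61, SE 0.14, adjusted p = 0.0479). The median of the 5 was -0.61, with 2 of them positive, and neither MALAT1 nor NEAT1 passed without miR-200a replicate 1 or without miR-200a replicate 2. The 10 highest genes took 5.21% to 6.48% of the counts of a library.

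A few further genes are given singly. FTH1, the ferritin heavy chain that stores iron, was at 2401 and 2459 CPM under miR-200a and at 1162 and 1169 CPM in the plasmid libraries (-1.06, SE 0.13, adjusted p = 0.012), whereas TFRC, the receptor that takes iron up, was at 263 and 257 CPM and then at 510 and 389 CPM (0.79, SE 0.16, adjusted p = 0.0403). Neither passed without miR-200a replicate 1 or without miR-200a replicate 2. Metallothionein MT1X, 1 of 6 family members tested and the only one past the threshold, was at 260 and 277 CPM and then at 84.2 and 54.3 CPM (-1.95, SE 0.21, adjusted p = 0.00794). Its copies are close in sequence, and reads may be split between them.

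AREG, a ligand of the EGF receptor and the only 1 of 8 tested EGF receptor ligands and receptors past the threshold, was at 190 and 193 CPM and then at 85.8 and 74.7 CPM (-1.26, SE 0.15, adjusted p = 0.0128), and ACTA2, smooth muscle actin and the only 1 of 25 tested actin genes of the SRF and MRTF type (median -0.19), at 9.19 and 11.7 CPM and then at 1.39 and 2.84 CPM (-2.29, SE 0.43, adjusted p = 0.0324). These were 12.5% and 4% of their lists, against 2.44% of all genes that fell. CDKN1C, an inhibitor of cyclin-dependent kinases, was at 57.3 and 50.7 CPM under miR-200a, at 29.7 and 24.8 CPM in the plasmid libraries and at 20.1 and 23.4 CPM under NC (-0.99, SE 0.20, adjusted p = 0.0372), and did not pass without either miR-200a library. AIM2, a sensor of cytosolic DNA, had 4 and 2 counts in the plasmid libraries (adjusted p = 0.019) against 6.69 and 8.79 CPM under miR-200a and 6.86 and 6.82 CPM under NC, and did not pass in DESeq2. H1F0, a linker histone of resting cells, was at 334 and 337 CPM and then at 167 and 108 CPM (-1.28, SE 0.21, adjusted p = 0.0212).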
